A study of Saccharomyces cerevisiae with 31 samples.

Results

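The genes described here encode the factors that carry cytosolic ribosomes through initiation, elongation and termination of protein synthesis in budding yeast, together with the poly(A)-binding protein gene PAB1. They were chosen by name: 36 gene symbols were looked up in the annotation of the array, and 33 had a probe set, 1 each, out of 5382 Saccharomyces cerevisiae genes tested. All 33 passed the filter on dim probe sets. No probe set carries the symbol TIF1, TEF1 or EFT1. The probe sets of their partner genes TIF2, TEF2 and EFT2 end in "_s_at", the array maker's mark for a set that matches more than 1 transcript, so signal from the copies of these near-identical genes cannot be told apart. The 33 genes comprise 23 for initiation, 7 for elongation, 2 for termination and PAB1.

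Initiation brings a ribosome to the start codon. The cap-binding complex eIF4F, with eIF4A and eIF4B, prepares the mRNA, eIF2 carries the initiator tRNA to the small subunit, and eIF2B recharges eIF2 with GTP. The scaffold eIF3 and the factors eIF1, eIF1A and eIF5 guide the choice of the start codon, and eIF5B joins the subunits. Elongation then needs eEF1A to deliver tRNAs, eEF1B to recharge it, eEF2 to move the ribosome on and, in fungi, eEF3. The release factors eRF1 and eRF3 end the chain. In yeast, transcripts of this machinery are known to follow growth, as those for ribosomes do.

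Transcript levels came from 31 Affymetrix Yeast 2.0 arrays, 1 per time point, of the strain CEN.PK122 kept in aerobic continuous culture, where the cells swung spontaneously between respiratory and reductive metabolism with a period of 2 h. Sampling ran from 12.53 to 14.53 h at intervals of 4 min, and the labels give a phase angle for each array, from 5.93 to 362.01 degrees. There is 1 group, with no treatment, mutant or control samples, and no label ties an angle to the respiratory state. The arrays cover 1 cycle and are treated as 1 culture, so the p-values reflect the spread of these arrays around a fitted curve, not repeated cycles. In a bulk culture, a change in every cell and a change in the share of cells in 1 state cannot be told apart.

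Intensities are given after quantile normalization, on a linear scale, as the lowest, median and highest of the 31 arrays. The fitted range is the distance on the log2 scale from trough to peak of 1 cosine per cycle, so that a range of 1 is 2-fold. The fitted peak is the angle at which this cosine is highest. In a profile that rises and falls unevenly, it can differ from the angle of the highest array. A gene is said to have varied with phase where limma's moderated F-test of this cosine gave an adjusted p under 0.05 over all 5422 probe sets. Array medians ran from 1056 at 41.54 degrees to 2142 at 350.11 degrees before normalization. Spike-in controls set apart a batch of 16 arrays and a batch of 15, which sampled different angles. Residuals of neighbouring arrays were correlated (0.660, median over probe sets), so SEs that take arrays as independent may be too small.

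Most translation factor transcripts were high and low at the same angles. Of the 33 genes, 32 varied with phase, against 89.1% of all probe sets tested, a share so high that the count alone says little. Their direction was less common: 30 had a fitted peak from 270 to 90 degrees, against 40.2% of all probe sets, and 2 had one from 90 to 270 degrees, against 48.9%. The fitted range was 2-fold or more in 11, against 23.1% of all probe sets, and its median was 0.80 against 0.54. The 2-fold count was 20 on the deposited scale and 8 and 17 within batches 1 and 2, settings for which the share of all probe sets is not given here. Within the batches 29 and 30 genes varied, against 77.1% and 83.2% of all probe sets, and with neighbouring arrays taken as serially correlated 29 did, against 58.6%. TEF2 did not vary, CAM1 and the elongation factor gene HEF3 peaked on the other side of the cycle.

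Most of these transcripts peaked and bottomed on neighbouring arrays. Of the 33 genes, 12 were highest at 29.67 degrees and 15 at 41.54 degrees, and 28 were lowest between 112.75 and 148.35 degrees. The share of all probe sets with extreme arrays at these angles was not counted. The mean of the cytosolic ribosomal protein genes was also highest at 29.67 and lowest at 124.62 degrees. The array at 41.54 degrees was the dimmest of all before normalization, and it and the array at 29.67 degrees belong to batch 2. Without the arrays at 29.67 and 41.54 degrees 32 genes varied, against 88.6% of all probe sets. Of these 32 genes 29, or 90.6%, had a fitted peak from 270 to 90 degrees, against 44.2% of the probe sets that varied. On the deposited scale, with no normalization, 31 genes varied, against 73.3% of all probe sets, and 30 had a fitted peak from 270 to 90 degrees, against 49.2%. Of the probe sets that varied, 45.1% had a peak on this side after quantile normalization and 67.1% on the deposited scale, while for the 33 genes these shares were 93.8% and 96.8%. With a linear trend in time taken out, 29 genes varied with a peak on this side, against 39.4% of all probe sets. On the deposited scale 24 of the 33 were highest at 29.67 degrees and 25 were lowest at 124.62 degrees. That scale keeps differences in array brightness, and the arrays at 124.62, 136.48 and 148.35 degrees were among the 5 dimmest. Here too the share of all probe sets was not counted.

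**Figure D1:**
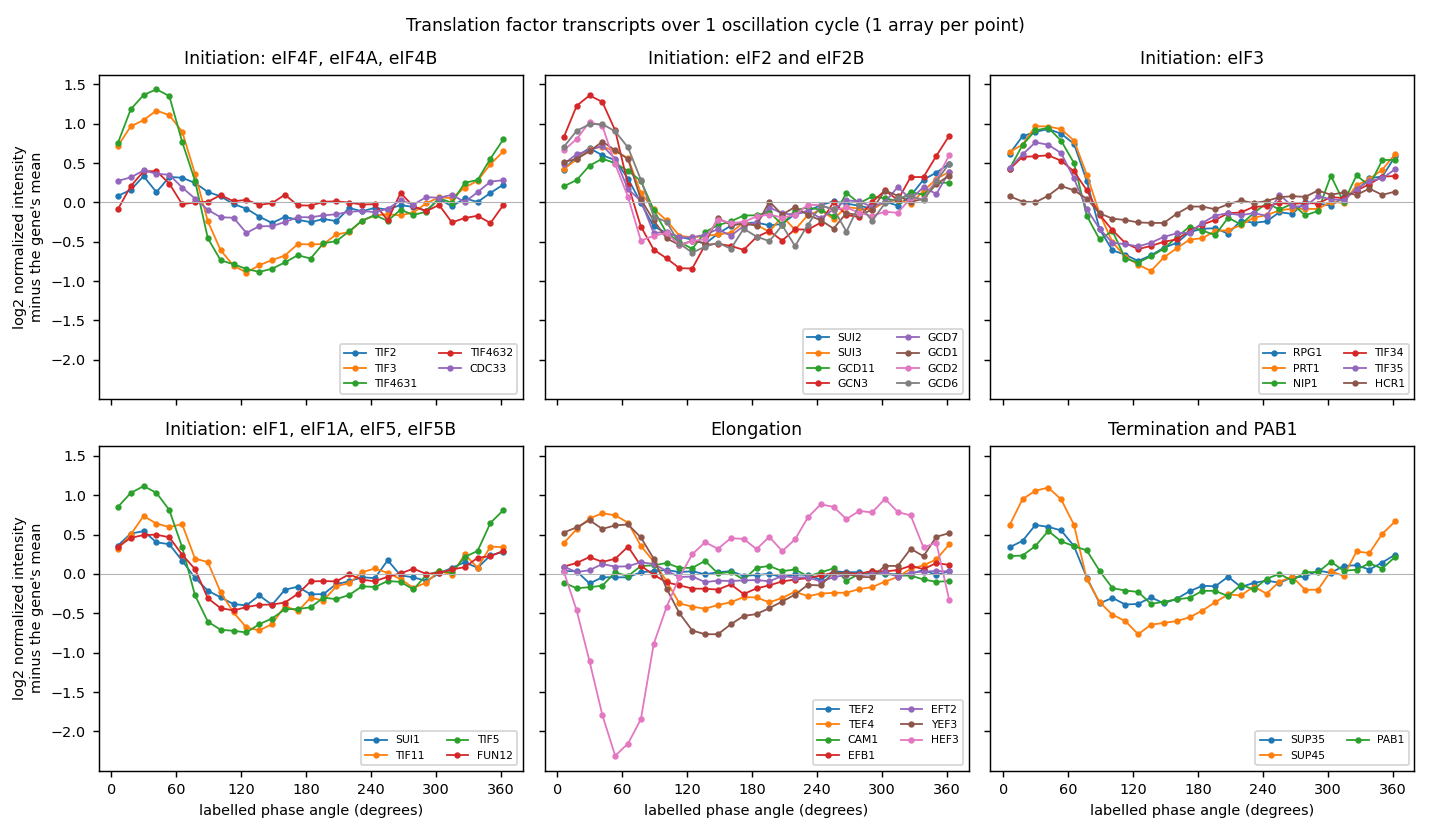
Log2 normalized intensity of each of the 33 genes, minus its own mean over the 31 arrays, against the labelled phase angle in degrees. Each point is 1 array. Of the initiation factor genes 22 of 23 are highest at 29.67 or 41.54 degrees, as are both release factor genes, whereas HCR1 has its highest and HEF3 its lowest array at 53.41 degrees.

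All 23 initiation factor genes varied with phase, against 89.1% of all probe sets, and all 23 had a fitted peak from 270 to 90 degrees, against 40.2%. Of these peaks 21 lay within 30 degrees of 0, for which no share of all probe sets was counted. Fitted ranges of the 23 genes ran from 0.20 to 1.65 with a median of 0.83, and 8 reached 2-fold, against 23.1% of all probe sets. Adjusted p-values lay between 1.11e-08 and 0.0383 (limma).

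The mRNA-activating factors held both the widest and the narrowest range. TIF4631, which encodes the main scaffold protein eIF4G, had normalized intensities from 1083 at 136.48 degrees through a median of 1788 to 5405 at 41.54 degrees. Its arrays from 0 to 60 degrees averaged 4503 ± 883 (SD, n = 6 arrays) and those from 120 to 180 degrees 1148 ± 68.7 (SD, n = 5 arrays), with no overlap. The fitted range was 1.65 ± 0.20 (SE, n = 31 arrays), or 3.14-fold, and the peak of the curve lay at 5.96 ± 7.08 degrees (SE, adjusted p = 9.33e-08, limma). Within batches 1 and 2 the range was 1.35 and 2.02. TIF3, the gene of eIF4B, which stimulates the helicase eIF4A, ran from 1685 at 124.62 degrees through 2817 to 7023 at 41.54 degrees. Its fitted range was 1.45 ± 0.17 (SE, adjusted p = 5.97e-08, limma), next in size among these factors.

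The transcript of the cap-binding protein varied less. CDC33, which encodes eIF4E, ran from 7188 at 124.62 degrees through 9226 to 12453 at 29.67 degrees, and its range was 0.53 ± 0.06 (SE, adjusted p = 1.11e-08, limma). TIF2, the probe set for the helicase eIF4A that may also read TIF1, ran from 10943 at 148.35 degrees through 12815 to 16526 at 29.67 degrees. Its range was 0.42 ± 0.05, with a later fitted peak at 27.3 ± 6.5 degrees (SE). TIF4632, the gene of the second eIF4G, had a lowest array of 1089 at 350.11 degrees, a median of 1286 and a highest array of 1720 at 41.54 degrees. Its 4 highest arrays were those from 17.8 to 53.41 degrees, at 1508 to 1720, and all others overlapped between 1089 and 1419.7. Its range of 0.20 ± 0.07 (SE, adjusted p = 0.0383, limma) did not pass with serially correlated arrays (adjusted p = 0.547) or within either batch, and its adjusted p ran from 0.000140 to 0.821 over the alternatives. Its fitted peak, at 88.0 degrees, moved to 354.6 degrees on the deposited scale.

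Transcripts of the 3 subunits of eIF2 varied by similar amounts. SUI2, the alpha subunit whose phosphorylation slows initiation, ran from 3110 at 136.48 degrees through 4355 to 7231 at 29.67 degrees, and its fitted range was 0.80 ± 0.10 (SE). The beta subunit gene SUI3 varied by 0.84 ± 0.10 and the GTP-binding gamma subunit gene GCD11 by 0.61 ± 0.10 (SE). Adjusted p-values of the 3 lay between 6.82e-08 and 7.42e-06 (limma).

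Among the genes of the 5 subunits of eIF2B, those of a regulatory and a catalytic subunit had the widest ranges. GCN3, the regulatory alpha subunit that senses phosphorylated eIF2, ran from 826 at 124.62 degrees through 1300 to 3792 at 29.67 degrees, a 4.59-fold span between its extreme arrays. It was at least 2228.5 on the arrays at 350.11 and 362.01 degrees and from 5.93 to 53.41 degrees, and at most 1849 on all others. Its fitted range was 1.45 ± 0.19 (SE, adjusted p = 2.29e-07, limma), with 1.06 and 1.91 within batches. GCD6, the catalytic epsilon subunit, ran from 1225 through 1802 to 3803 and varied by 1.18 ± 0.14 (SE). The other regulatory subunits GCD7 and GCD2 varied by 0.75 ± 0.11 and 0.79 ± 0.16 and the catalytic partner GCD1 by 0.76 ± 0.13 (SE). GCD2 passed over all arrays (adjusted p = 0.000213, limma) but not within batch 1, where its range was 0.45 (adjusted p = 0.0789, the highest over its alternatives, whose lowest was 1.63e-14).

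Of the 6 eIF3 genes, all varied, 3 of them by 2-fold or more, against 89.1% and 23.1% of all probe sets. PRT1, whose product binds RNA and holds the complex together, ran from 2195 at 136.48 degrees through 3790 to 7862 at 29.67 degrees. Its range was 1.26 ± 0.15 (SE, adjusted p = 8.72e-08, limma), with 1.07 and 1.54 within batches. RPG1, the gene of the large scaffold subunit, varied by 1.17 ± 0.15 and NIP1, the third of the large core subunits, by 1.10 ± 0.14 (SE). The small subunits TIF34 and TIF35 varied less, by 0.83 ± 0.10 and 0.86 ± 0.12 (SE). HCR1, a loosely bound subunit that also acts when ribosomes are recycled, ran only from 3209 at 136.48 degrees through 3910 to 4443 at 53.41 degrees. Its range was 0.31 ± 0.04 with the earliest fitted peak of the initiation factors, 325.0 ± 8.2 degrees (SE, adjusted p = 1.16e-06, limma).

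The factors of start codon choice and subunit joining varied by 0.59 to 1.27. TIF5, the gene of the GTPase activator eIF5, ran from 1519 at 124.62 degrees through 2282 to 5514 at 29.67 degrees, with a range of 1.27 ± 0.17 (SE, adjusted p = 4.08e-07, limma). TIF11, the gene of eIF1A, varied by 0.86 ± 0.13, the eIF5B gene FUN12 by 0.63 ± 0.09 and SUI1, the gene of eIF1, by 0.59 ± 0.08 (SE). SUI1 ran from 4854 through 6214 to 9335 and FUN12 from 5544 through 7648 to 10800.0, both highest at 29.67 or 41.54 degrees.

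**Figure D2:**
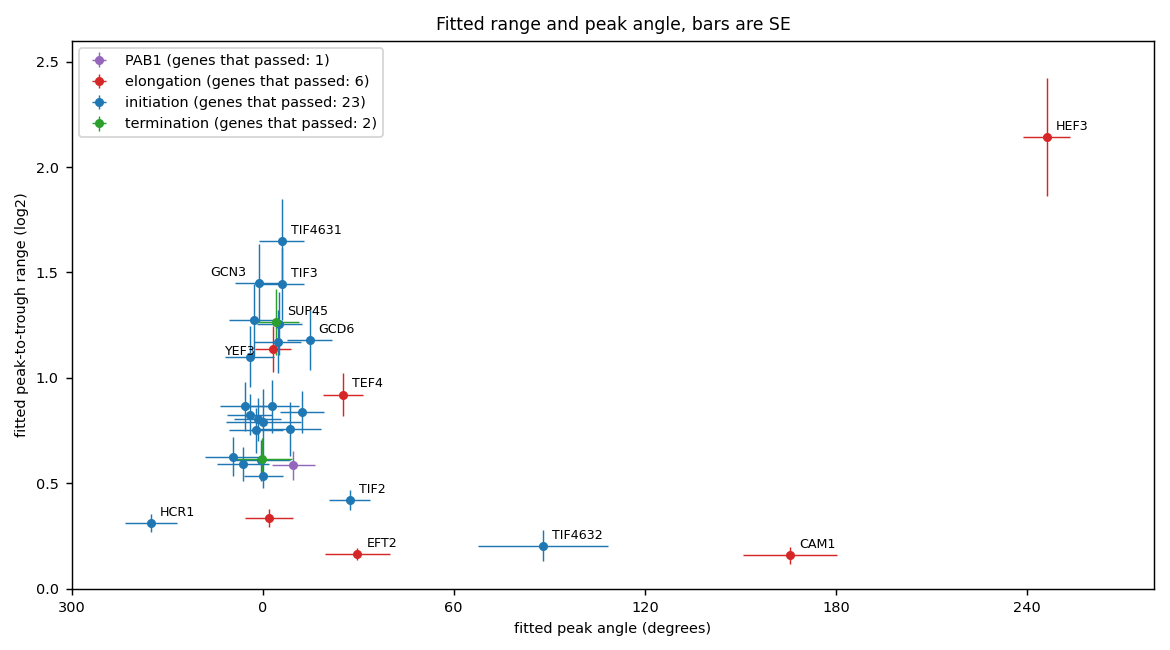
Fitted range (log2 units, trough to peak) against fitted peak angle in degrees for the 32 genes that varied with phase, coloured by class, with bars of 1 SE. Most initiation and both release factor genes form a column near 0 degrees with ranges up to 1.65, and HEF3 stands alone at 246.1 degrees and 2.14.

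Of the 7 elongation factor genes measured 6 varied, against 89.1% of all probe sets, 4 with a fitted peak from 270 to 90 degrees and 2 opposite, against 40.2% and 48.9%. Their fitted ranges ran from 0.01 to 2.14 with a median of 0.33. YEF3 and HEF3 reached 2-fold, as did 23.1% of all probe sets.

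YEF3, the gene of eEF3, an ATPase that fungal ribosomes need in each elongation cycle, ran from 6449 at 136.48 degrees through 11004 to 17591 at 29.67 degrees. Its arrays from 0 to 60 degrees lay at 16451 ± 702 (SD, n = 6 arrays) and those from 120 to 180 degrees at 6833 ± 478 (SD, n = 5 arrays). The fitted range was 1.14 ± 0.11 and the fitted peak 3.16 ± 5.61 degrees (SE, n = 31 arrays, adjusted p = 2.29e-09, limma), with 1.03 and 1.31 within batches. No other of the 33 genes had a smaller adjusted p.

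HEF3 encodes the second form of eEF3, which is little used in standard culture. Its normalized intensity fell from 896 at 5.93 degrees to 177.1 at 53.41 degrees, rose to 1044.5 by 124.62 degrees and reached its highest array, 1701, at 302.64 degrees, a 9.60-fold span around a median of 1108. The 6 arrays from 0 to 60 degrees averaged 511 ± 278 (SD) and the 5 arrays from 240 to 300 degrees 1533 ± 76.1 (SD), with no overlap. Its fitted range of 2.14 ± 0.28 (SE, adjusted p = 3.06e-07, limma) was the widest of the 33 genes, at 246.1 ± 7.4 degrees (SE), and it was 2.70 and 1.78 within batches. A single cosine described this profile poorly: the curve with the first 3 harmonics had a range of 2.89, its highest point at 255.8 degrees and its lowest at 57.9 degrees.

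The 3 genes of the exchange factor eEF1B differed in fitted range. TEF4, a gamma subunit gene, ran from 4287 at 136.48 degrees through 5184 to 9932 at 41.54 degrees, with a range of 0.92 ± 0.10 and a fitted peak at 25.2 ± 6.3 degrees (SE, adjusted p = 1.7e-08, limma). EFB1, the gene of the catalytic alpha subunit, ran from 9844 at 172.09 degrees through 11832 to 14946 at 65.28 degrees and varied by 0.33 ± 0.04 (SE, adjusted p = 2.56e-07, limma). CAM1, the other gamma subunit gene, ran from 5196 at 17.8 degrees through 5968 to 6615 at 136.48 degrees. Its small range of 0.16 ± 0.04 with a fitted peak at 165.6 degrees (SE, adjusted p = 0.00224, limma) was 0.09 and 0.23 within batches, passing only in batch 2. It was 0.053 with a peak at 22.4 degrees on the deposited scale (adjusted p = 0.891) and did not pass with serially correlated arrays (adjusted p = 0.275), over alternatives from 7.78e-08 to 0.891.

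The brightest elongation factor transcripts changed little. EFT2, the eEF2 probe set that may also read EFT1, ran from 13458 at 136.48 degrees through 14351 to 16033 at 77.14 degrees. Its range was 0.16 ± 0.03 (SE, adjusted p = 2.59e-05, limma) and 0.20 and 0.14 within batches, and it did not pass in batch 2 (adjusted p = 0.0652) or with serially correlated arrays (adjusted p = 0.0839, alternatives from 2.38e-07 to 0.404). TEF2, the eEF1A probe set that may also read TEF1, ran from 15346 through 16705 to 17277 and did not pass: its fitted range was 0.01 ± 0.03 (SE, adjusted p = 0.981, limma). With median centring of the arrays TEF2 passed with a range of 0.31 at 144.0 degrees (adjusted p = 0.00449, alternatives from 0.00449 to 0.995). Over the 33 genes the fitted range was lower where the median intensity was higher (Spearman's rho = -0.59 across genes, which share the arrays and are not independent). Of the 5 genes with the highest medians, EFB1, TIF2, EFT2 and TEF2 had ranges under 0.5, and YEF3 did not. Whether bright probe sets respond less to a change in transcript was not tested.

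Both release factor genes were high with the initiation factors. SUP45, which encodes eRF1, the protein that reads stop codons, ran from 2036 at 124.62 degrees through 3100 to 7408 at 41.54 degrees. Its arrays from 0 to 60 degrees averaged 6468 ± 867 (SD, n = 6 arrays) against 2230 ± 122 (SD, n = 5 arrays) from 120 to 180 degrees. The fitted range was 1.27 ± 0.16 with a fitted peak at 4.18 ± 7.29 degrees (SE, adjusted p = 1.5e-07, limma), and the range was 1.00 and 1.58 within batches. SUP35, the gene of the GTPase eRF3, whose product can also form the prion [PSI+], ran from 3083 at 112.75 degrees through 3923 to 6214 at 29.67 degrees and varied by 0.62 ± 0.10 (SE, adjusted p = 6.48e-06, limma). PAB1, whose product coats the poly(A) tail and binds eIF4G, ran from 6109 at 136.48 degrees through 8077 to 11603 at 41.54 degrees, a range of 0.58 ± 0.07 with a fitted peak at 9.63 ± 6.77 degrees (SE, adjusted p = 4.59e-08, limma).

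The fall was faster than the rise. The mean of the initiation factor genes, each centred on its own mean, stood at 0.46 at 5.93 degrees, 0.74 at 29.67 degrees, 0.41 at 65.28 degrees, -0.24 at 89.01 degrees and -0.55 at 124.62 degrees on the log2 scale. It then climbed through -0.30 at 183.96 degrees and -0.10 at 243.3 degrees to 0.31 at 350.11 degrees. Its steepest step between neighbouring arrays was a fall of -0.35 from 65.28 to 77.14 degrees, both arrays of batch 1. The steepest rise was 0.17 from 5.93 to 17.8 degrees, a step from batch 1 to batch 2. A test of faster terms, with 2 and 3 waves per cycle, asks whether a profile departs from a single cosine, and 32 of the 33 genes passed it (limma, adjusted p under 0.05), against 86.1% of all probe sets. The exception was TEF2. With serially correlated arrays 26 genes passed, against 46.8%. In the curve with the first 3 harmonics TIF4631 had a range of 2.37, TIF3 of 2.10 and GCN3 of 2.13, with highest points at 33.8, 36.8 and 26.0 degrees.

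The genes did not all fall at the same angle. For the 25 genes with a fitted peak near 0 degrees and a range of at least 0.5, a limit set after the values were seen, the profile passed downward through the midpoint of its extreme arrays between 60.4 and 96.4 degrees, with a median of 77.1, and upward between 261.6 and 351.4 degrees. The arrays are about 12 degrees apart, and these angles carry no error estimate. The midpoints of GCD2, GCN3 and GCD7 came first, at 60.4, 64.6 and 67.6 degrees. The other eIF2B subunit genes, GCD1 and GCD6, followed at 75.3 and 79.9 degrees, so that the 5 subunits spanned the median. The midpoints of PAB1, TEF4, TIF11 and YEF3 came last, at 87.0, 88.5, 93.4 and 96.4 degrees. YEF3 was still at 16944 at 65.28 degrees and 15112 at 77.14 degrees, against its highest 17591, while at the same angles GCN3 had fallen from 3792 to 1725 and 1196.

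**Figure D3:**
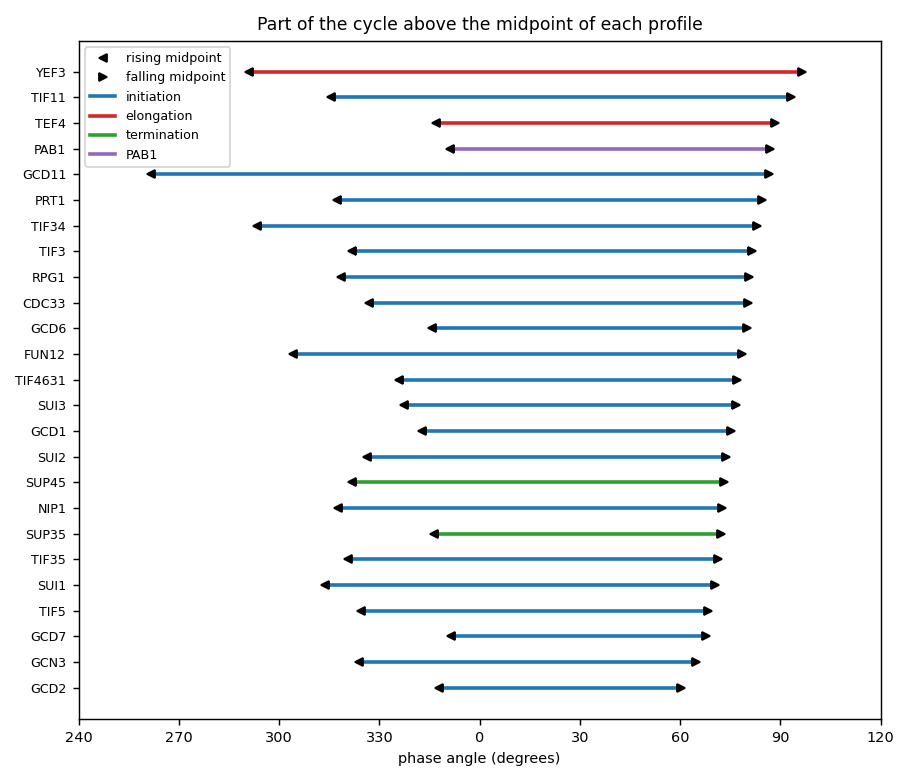
For each of the 25 genes with a fitted peak near 0 degrees and a range of at least 0.5, the bar spans the phase angles at which its profile lay above the midpoint of its lowest and highest array. Genes are ordered by the falling midpoint, from 60.4 degrees for GCD2 to 96.4 degrees for YEF3.

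The first array at 5.93 degrees and the last at 362.01 degrees lie at nearly the same phase, 2 h apart, but in different batches, 1 and 2. The last minus the first ran from -0.36 (HEF3) to 0.14 (TIF2) on the log2 scale, with a median size of 0.05. HEF3 was at 896 on the first array and 697 on the last, on the steep part of its fall.

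Paralogs with the same role differed in how they varied. Of 6 pairs in the list, 3 had a probe set for each gene, and for each the log2 ratio of both genes was fitted over the angle and its F statistic set against 100000 random orders of the 31 arrays. In all 3 pairs the permutation test gave p = 1e-05, the smallest it can give, with an adjusted p = 1e-05 over the 3 pairs. These orders treat the arrays as exchangeable, which neighbouring arrays were not. With serially correlated arrays the F-test of the ratios gave adjusted p-values from 2.87e-06 for the eIF4G genes to 6.71e-05 for the eEF3 genes.

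The eIF4G genes were the first pair. The ratio of TIF4631 to TIF4632 varied by 1.63 ± 0.17 (SE), and by 1.39 and 1.93 within batches. The cosine of this ratio was highest at 358.9 ± 5.9 degrees (SE). Both genes were highest at 41.54 degrees, at 5405 and 1720, but from 53.41 to 100.88 degrees TIF4631 fell from 5092 to 1198. Over these arrays TIF4632 fell from 1543 to 1286 at 65.28 degrees and was back at 1393 at 100.88 degrees. In the second pair the ratio of TEF4 to CAM1 varied by 1.05 ± 0.12 (SE), and by 0.92 and 1.28 within batches. The cosine of this ratio was highest at 19.7 ± 6.7 degrees (SE). The ratio of YEF3 to HEF3 varied most, by 2.85 ± 0.39 with a fitted peak at 45.3 ± 7.8 degrees (SE), and by 3.36 and 2.71 within batches. At 53.41 degrees YEF3 stood at 16809 and HEF3 at its lowest 177.1, whereas at 136.48 degrees YEF3 stood at its lowest 6449 and HEF3 at 1161. Whether the probe sets of a pair share signal was not tested.

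**Figure D4:**
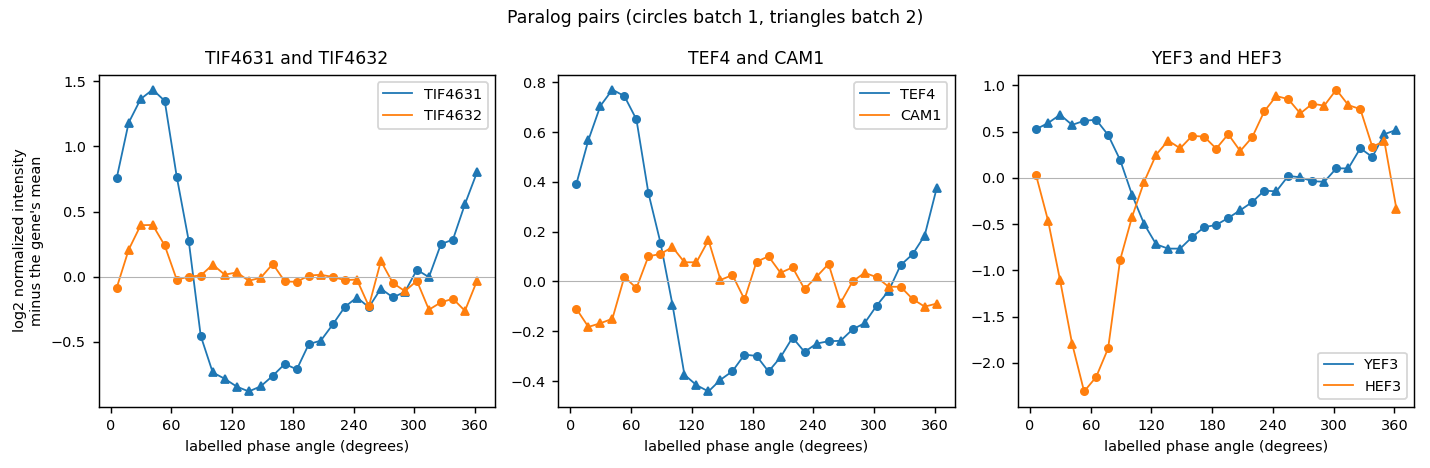
Log2 normalized intensity minus the mean of each gene against the labelled phase angle in degrees for 3 paralog pairs, with circles for arrays of batch 1 and triangles for batch 2. HEF3 rises from 65.28 to 136.48 degrees while YEF3 falls, and TIF4632 and CAM1 span less of the axis than TIF4631 and TEF4.

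Genes that modify or assist these factors were followed through 6 short lists, described by counts with no test of the list. All 7 genes of diphthamide synthesis, the modification of eEF2, varied with a fitted peak from 270 to 90 degrees, with a median range of 1.71, where of all probe sets 40.2% did and the median range was 0.54. DPH1, for the first step, ran from 313 through 715 to 2956 (range 2.13 ± 0.27, SE) and the J-protein gene JJJ3 from 542 through 904 to 3302 (range 1.83 ± 0.22, SE). Of 9 listed methyltransferase genes for elongation and release factors, among them the activator gene TRM112, 8 were measured, and all 8 varied with a peak on the same side and a median range of 1.34. EFM6 did not pass with serially correlated arrays (adjusted p = 0.161). EFM2 varied by 2.16 ± 0.28 and EFM4 by 1.71 ± 0.17 (SE).

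Genes of the hypusine pathway of eIF5A varied while the main eIF5A gene did not. LIA1, the hydroxylase gene, ran from 671 through 1886 to 8469 (range 2.75 ± 0.28, SE, adjusted p = 5.09e-09, limma) and DYS1, the deoxyhypusine synthase gene, from 1055 through 1477 to 4935 (range 1.503, SE 0.20, adjusted p = 4.38e-07, limma). HYP2 ran from 13266 through 14510 to 15560 and did not pass (range 0.04 ± 0.03, SE, adjusted p = 0.482, limma), and it too is a bright probe set. The hypoxic form ANB1, named after its values were seen, ran from 73.5 through 195.2 to 903 and varied by 1.499 ± 0.270 (SE, adjusted p = 4.34e-05, limma), but it did not pass with serially correlated arrays (adjusted p = 0.0634).

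Of 12 regulators and helicases of initiation 11 varied, against 89.1% of all probe sets, 6 with a fitted peak from 270 to 90 degrees and 5 opposite, against 40.2% and 48.9%. These shares lie near those of all probe sets, and the median range was 0.40. The helicase gene DBP1 was lowest at 29.67 degrees, at 264, against a median of 1741 and a highest array of 2013 (range 1.77 ± 0.27, SE), opposite to its paralog DED1, which was highest at 41.54 degrees. CAF20, which encodes an inhibitor that binds eIF4E, was highest at 41.54 degrees with 6639 (range 0.86 ± 0.11, SE). Among 10 genes for recycling, rescue and ribosome-bound ATPases 9 varied, the share of all probe sets being 89.1%, and 7 had a fitted peak from 270 to 90 degrees, against 40.2%. The widest ranges were those of ARB1 with a range of 2.03 ± 0.20 and NEW1, a relative of YEF3, with 1.85 ± 0.23 (SE).

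Mitochondrial translation factors lay on the other side of the cycle. All 9 measured of 10 listed varied, against 89.1% of all probe sets, and all 9 had a fitted peak from 90 to 270 degrees, against 48.9%. With serially correlated arrays 8 varied, against 58.6% of all probe sets, and on the deposited scale 7, against 73.3%. Their mean had a fitted peak at 165.5 degrees, was lowest at 53.41 degrees and highest at 124.62 degrees, the angle at which the initiation mean was lowest. The recycling factor gene RRF1 ran from 551 at 17.8 degrees through 921 to 1932 at 124.62 degrees (range 1.27 ± 0.13, SE), and FMT1 had a range of 1.29 ± 0.48 (SE, adjusted p = 0.0449, limma). The FMT1 probe set was dim, with a median of 29.8 near the filter limit of 17.04. Its range was 1.91 and 0.53 within batches, and it did not pass with serially correlated arrays (adjusted p = 0.711).

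The means of the classes were set beside that of the cytosolic ribosomal protein genes. The mean of the initiation factors had a fitted range of 0.87 ± 0.11, and its cosine was highest at 2.48 ± 7.50 degrees (SE). Its highest array was that at 29.67 degrees, and its range was 0.67 and 1.10 within batches. The mean of 127 ribosomal protein genes had a range of 0.44 ± 0.05, its cosine being highest at 3.14 ± 6.74 degrees (SE). This mean varied by 0.37 and 0.54 within batches. It stayed high for longer, passing the midpoint of its extreme arrays upward at 296.9 and downward at 87.1 degrees, against 323.6 and 75.8 degrees for the initiation mean. The ribosomal protein probe sets were brighter, with a median of their median intensities of 10025.9 against 3910 for the initiation factors, and the bright initiation factor genes CDC33 and TIF2 had ranges of 0.53 and 0.42. The part of brightness in the narrower range was not tested. Elongation factors without HEF3 varied by 0.39 ± 0.04, with the cosine highest at 14.5 ± 5.9 degrees (SE). Release factors varied by 0.94 ± 0.13, with the cosine highest at 2.79 ± 7.99 degrees (SE). The difference between these means was not tested, since the genes were chosen with earlier results known. Of the ribosomal protein genes 5 of 127 reached a range of 2-fold, or 3.94%, and of the initiation factor genes 8 of 23, or 34.8%, against 23.1% of all probe sets.

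**Figure D5:**
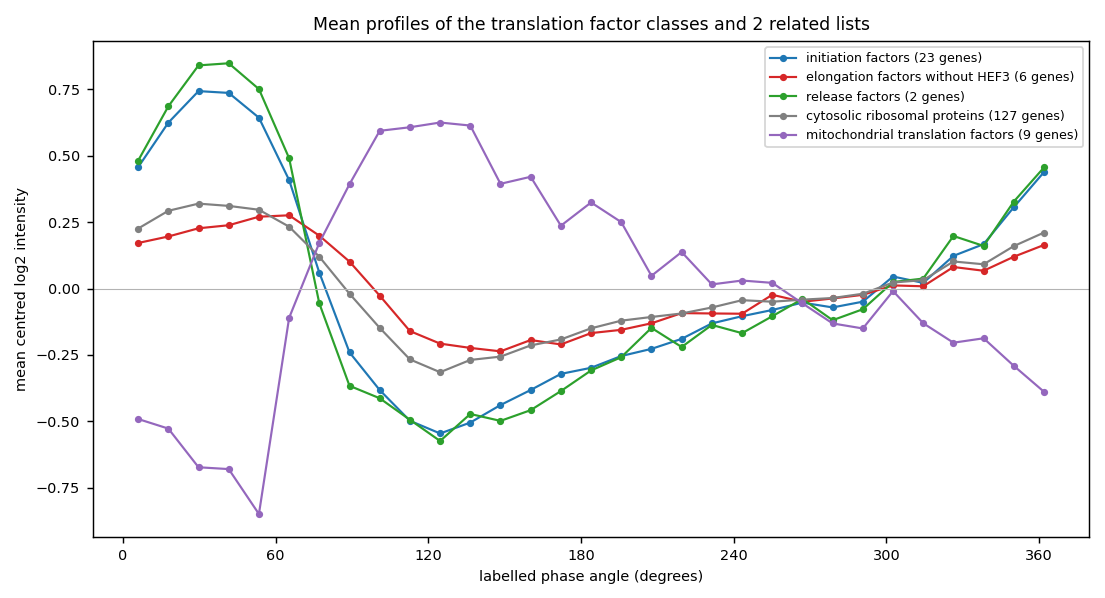
Mean of centred log2 intensities per array against the labelled phase angle in degrees for initiation factors, elongation factors without HEF3, release factors, cytosolic ribosomal proteins and mitochondrial translation factors. Initiation and release factors reach 0.74 and 0.85, ribosomal proteins 0.32, and mitochondrial factors run opposite.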

How the data were processed

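The authors deposited 1 linear signal intensity per probe set and array, computed in GCOS (Affymetrix) according to the submitters' processing notes. No source used here gives the version or scaling target of GCOS. Intensities of the 5498 probe sets with 1 S. cerevisiae gene symbol were taken to log2 and quantile normalized. Symbols came from the array annotation, updated for 12 probe sets from a gene table of assembly R64. A floor of 17.04, percentile 95 of the medians of 1747 probe sets for other organisms, removed 76, and 5422 were tested. Phase fits used limma 3.58.1 in R 4.3.3 with Benjamini-Hochberg adjustment over these, after a test on simulated data. Figures used matplotlib 3.10.9.

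Poly-A spikes set against hybridization spikes split the arrays by the number in their description, up to 189 (16 arrays, -4.19 to -3.57 on the log2 scale) or above (15 arrays, -5.18 to -4.57). This is called a batch here, and its origin is not stated. Alternatives were 3 other scalings, other filters and offset, batch terms, serial correlation, a linear trend, 3 harmonics and subsets of the arrays. Fits without the array at 41.54 degrees, alone or with that at 29.67 degrees, were added after the data were seen. The members and lists were chosen with earlier results of these data known. All 33 genes found may be named, with the 2 widest ranges of each related list and the 5 profiles most like HEF3 and the initiation mean. HYP2, ANB1, EAP1, DED1, EFM6 and TRM112 fall outside this rule and were named after their values were seen. No sequences were used.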

Additional observations from a re-analysis of the deposited data

How the results depend on the processing

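The count of 32 genes that varied stayed between 29 and 32, and the 30 with a fitted peak from 270 to 90 degrees between 28 and 30, under every alternative run. The share of all probe sets that varied ran from 58.6% with serially correlated arrays to 95.7% with 3 harmonics. Where that share was high, the count alone says little. Of all probe sets that varied, 42.6% with median centring to 67.1% on the deposited scale had a peak on this side. For the translation factor genes that varied, the lowest and highest shares were 87.5% and 96.8%, under the same settings. The number with a range of 2-fold or more was 11, but 20 on the deposited scale, 8 and 17 within batches 1 and 2, 9 without the dimmest arrays and 23 with 3 harmonics. The share of all probe sets at 2-fold under these alternatives is not given here. The median range was 0.80, but 1.07 on the deposited scale, 0.60 and 1.02 within batches 1 and 2 and 1.22 with 3 harmonics, which can follow a steeper curve. The median over all probe sets moved in the same directions, from 0.54 to 0.60 on the deposited scale, 0.46 and 0.66 within batches and 0.81 with 3 harmonics. The mean of the initiation factors varied by 1.13 on the deposited scale and 1.10 within batch 2, and that of all 7 elongation factors by 0.28, 0.46 on the deposited scale, 0.086 with median centring and 0.33 with spike scaling. For single genes, the fitted peak of TIF4632 moved by over 90 degrees on the deposited scale (range 0.37), with spike scaling (0.17) and with a linear trend (0.056), and CAM1 on the deposited scale (0.053). The cause was not tested. The 3 pairs kept their calls under each alternative run for them. Array medians spanned 1.02 on the log2 scale, so ranges here are relative to that shift. Each gene had 1 probe set, so the planned choice of the dimmest probe set was not run. The number of arrays limits the precision. No paired analysis was possible because the labels form 1 group.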

Other observations

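The 5 genes whose profiles were most like the mean of the initiation factor genes, by Pearson's correlation over the 31 arrays, were NSA1 (0.998), a gene of large subunit assembly, SXM1 (0.996), which encodes a nuclear import receptor, NOP6 (0.995), ASP1 (0.995), the cytosolic asparaginase gene, and MRD1 (0.994), a gene of small subunit assembly. Their fitted ranges ran from 1.59 for SXM1 to 3.25 for MRD1, all wider than the 0.87 of the initiation mean. The genes most like HEF3 were OYE3 (0.982), which encodes an NADPH oxidoreductase, LDO16 (0.976), ETR1 (0.974), a gene of mitochondrial fatty acid synthesis, SIP18 (0.973), known from osmotic stress and drying, and FMP52 (0.968), with fitted ranges of 1.51, 0.69, 1.58, 2.49 and 0.89. All points share the same 31 arrays, and these values only describe likeness.

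HYP2 and ANB1, the eIF5A genes, and CAF20 and EAP1, both encoding proteins that bind eIF4E, are further pairs, named after their values were seen. CAF20 was highest at 41.54 degrees and EAP1 lowest at 29.67 degrees, where it stood at 1791 against a median of 2534 (range 0.41 ± 0.07, SE, adjusted p = 4.68e-05, limma). The ratio of these 2 genes was not tested.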
